A study of Arabidopsis thaliana with 4 samples.

Results

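The genes described here encode the core histones H2B, H3 and H4 of Arabidopsis thaliana. They were chosen by annotation alone: nuclear protein-coding genes whose TAIR10 symbol or product names H2B, H3, H4 or the histone superfamily, without H2A genes and without histone-modifying enzymes. The rule found 36 of 27444 nuclear protein-coding genes, namely 11 H2B genes, 14 H3 genes, 8 H4 genes and 3 others. The other 3 carry a histone-fold product name but are not core histones by protein sequence: LEC1, a transcription factor of embryo development, AT5G50930 (synonym MHF1) and AT5G19490.

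Open chromatin was mapped by ATAC-seq, a method that cuts and tags accessible DNA with the Tn5 transposase, in flowers of Columbia-0 plants after 4 weeks of growth. The libraries came from the mbd9-3 mutant (2 libraries) and from wild type (2 libraries), which differ in the mbd9-3 allele only as far as the labels state. MBD9 associates with SWR1, the complex that places the variant H2A.Z into nucleosomes. Nuclei came from whole inflorescences, so a site open in a small share of the cells and a site weakly open in all of them cannot be told apart.

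A nucleosome holds H2A, H2B, H3 and H4 wrapped by DNA. Most histone mRNA is made during DNA replication, when new chromatin must be filled, and the histone genes of plants are known for promoter motifs such as the octamer and the hexamer that were tied to expression in dividing cells. H3 has a replication-coupled form, H3.1, and a replacement form, H3.3, that is deposited outside replication by HIRA. CENH3, encoded by HTR12, takes the place of H3 at centromeres.

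The proteins of each family differed in how alike they were. All 8 H4 genes encode the same protein of 103 residues. Of the 14 H3 genes, 5 (AT1G09200, AT3G27360, AT5G10390, AT5G10400 and AT5G65360, synonym H3.1) encode the same 136 residues, and 3 (AT4G40030, AT4G40040 and AT5G10980, synonym H3.3) encode another that differs from it by A31T, F41Y, S87H and A90L, with positions counted from the residue after the initiator methionine and the H3.1 residue given first. Each of the other 6 H3 genes has a protein of its own, from 93.5% identity to H3.1 for HTR11 down to 40.4% for HTR12. No pair of H2B proteins was identical, and identity to HTB1 ran from 92.0% for HTB9 to 31.7% for AT1G08170, whose protein of 243 residues is the longest of the 11.

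The promoters are shown first, since the octamer and the hexamer were more frequent among members than among all genes. Each of these motifs lay in a minority of the members. The windows ran from 250 bp before the transcription start site (TSS) to 50 bp after it, in the TAIR10.1 genome of RefSeq, whose nuclear chromosomes are those of TAIR10. The octamer CGCGGATC, searched on both strands, lay in 6 of the 36 member windows (16.7%), against 40 of 27437 windows of all genes (0.146%), so 6 of the 40 windows with an octamer in the genome belonged to members. The carriers were 4 H3 genes and 2 H4 genes, and 0 of 11 H2B windows held it. The 7 copies are listed with 10 flanking bases on each side, read in the direction of the motif, with the octamer in capitals.
AT1G09200 (H3.1), copy at -90 bp, chr1:2972407-2972434, minus strand: cgtaccttcaCGCGGATCagtgttagaa
AT1G09200 (H3.1), copy at -19 bp, chr1:2972336-2972363, minus strand: tgtgatttcaCGCGGATCgtgatagaaa
AT5G10400 (H3.1), copy at -120 bp, chr5:3271060-3271087, minus strand: taacacaggaCGCGGATCgtaaagatac
AT5G65360 (H3.1), copy at -126 bp, chr5:26120690-26120717, minus strand: ttagacgtgaCGCGGATCactaaaatta
AT4G40040 (H3.3), copy at -17 bp, chr4:18558945-18558972, plus strand: tacaaaccgtCGCGGATCgctgaaataa
AT1G07660 (H4), copy at -126 bp, chr1:2368697-2368724, plus strand: acagatttcaCGCGGATCgcaatcttgg
AT5G59690 (H4), copy at -71 bp, chr5:24051393-24051420, plus strand: actgccatcaCGCGGATCactaatatga

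The hexamer ACGTCA, on both strands, was the motif of the H2B genes. It lay in 9 of 11 H2B windows (81.8%), in 4 of 14 H3 windows (28.6%), in 1 of 8 H4 windows (12.5%) and in 9.19% of all windows. Only AT5G10400, an H3.1 gene, held both the octamer and the hexamer, a pair found in 3 of 27437 windows. The H2B copies follow with 10 bases on each side and the hexamer in capitals.
HTB2, copy at -195 bp, chr5:7652894-7652919, minus strand: aaaagtaaccACGTCAgctatccacg
HTB2, copy at 2 bp, chr5:7652697-7652722, minus strand: tcatatctccACGTCAcgcatccgcg
HTB9, copy at -156 bp, chr3:16898154-16898179, minus strand: caatattgacACGTCAtcgatcccgc
HTB4, copy at 40 bp, chr5:24126907-24126932, plus strand: aatctgggacACGTCAatagtcctgg
HTB11, copy at -88 bp, chr3:16914204-16914229, minus strand: aatatattccACGTCAtcaatcctcg
AT2G37470, copy at -48 bp, chr2:15736669-15736694, plus strand: tatttaagccACGTCAtcgatcctcg
AT2G28720, copy at -50 bp, chr2:12326748-12326773, plus strand: aacgtgatccACGTCAccaacgatac
AT3G53650, copy at -96 bp, chr3:19889191-19889216, plus strand: gatggatgacACGTCAtcgatccgca
AT5G02570, copy at -100 bp, chr5:577261-577286, minus strand: atctaacgacACGTCAtcgatctatg
HTB1, copy at -31 bp, chr1:2412897-2412922, plus strand: agaaatatacACGTCAatgatcctcg

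The other motifs searched did not set the members apart. TATAAA, on both strands, was in 22 of 36 member windows (61.1%) and in 52.2% of all windows, and the E2F site form TTTCCCGC was in 0 of 36 member windows and in 0.798% of all windows. Among the 33 core histone genes, the 6 with an octamer all had a peak in every library, with a median rank percentile of 87.8, and the 14 with a hexamer had one in every library in 13 cases, with a median of 87.1. Of the core genes without the motif, 23 of 27 without an octamer were open in all 4 libraries, with a median of 82.6, and 16 of 19 without a hexamer, with a median of 79.7. The medians with and without TATAAA were 86.6 and 80.2, a gap of like size to that of the hexamer. A rank percentile of 100 marks the peak with the highest fold enrichment of a library's list. Fold enrichment is the number of overlapping tags at the summit over the background at that site in the same library, each with a small constant added. Of the 14 hexamer carriers 9 were H2B genes, the family with the highest median rank, so motif and family cannot be told apart here. These medians cover genes with a peak in all 4 libraries and are given as a description.

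**Figure D1:**
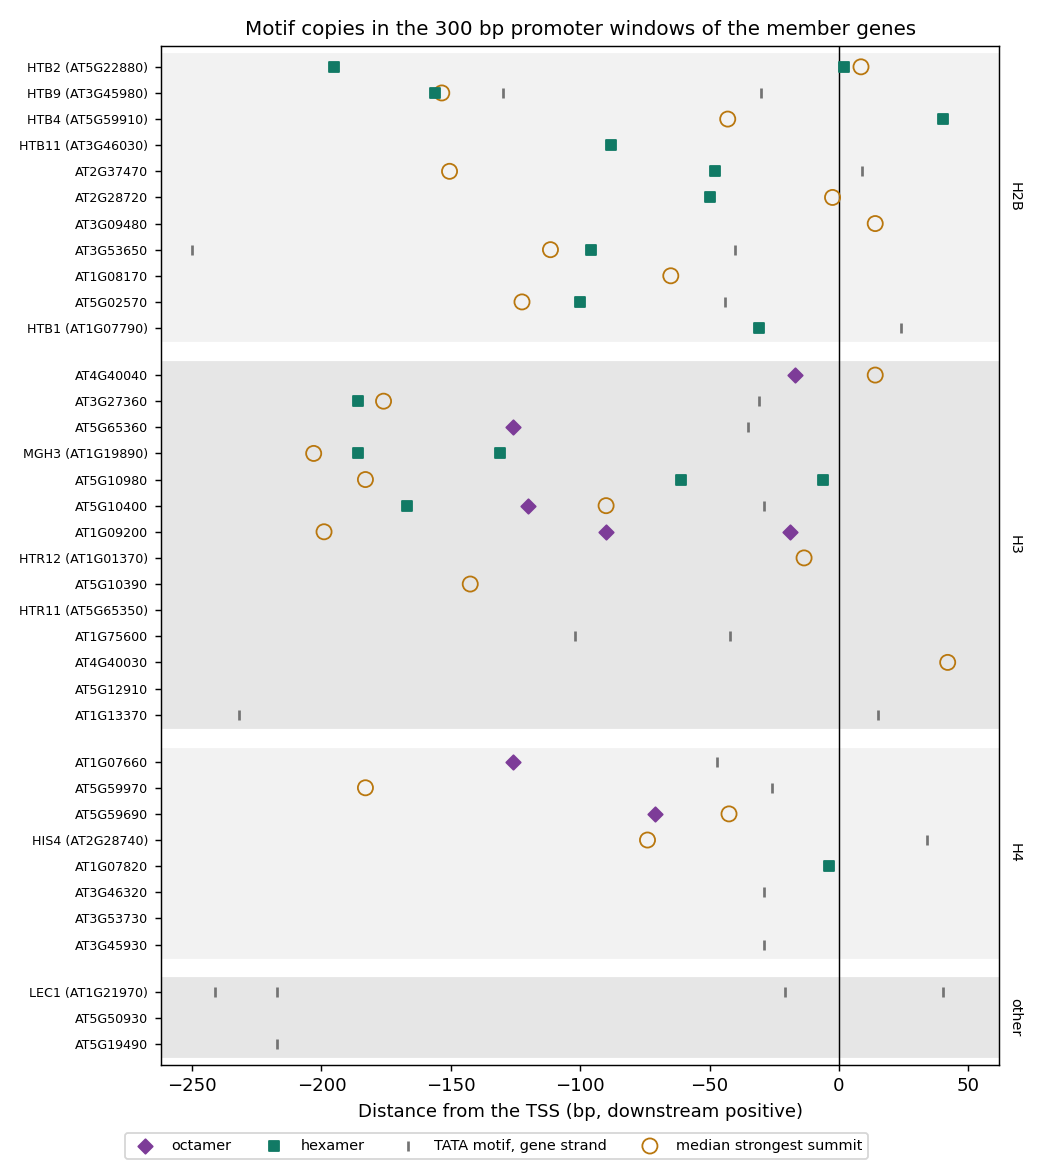
Copies of the octamer, the hexamer and the TATA motif (gene strand only) in the 300 bp window of each member, by distance of the first base from the TSS in bp, with open circles for the median position of the strongest ATAC-seq summit where that lay in the window. Hexamers sit in 9 of 11 H2B rows and octamers in 4 H3 and 2 H4 rows.

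Nearly all histone genes had open chromatin in flowers. A gene was counted as open where a peak summit lay between 1 kb upstream of its TSS and its end. By that count 35 and 31 of 36 members were open in the mbd9-3 libraries (replicates 1 and 2), against 34 and 35 in the wild-type libraries. The shares for all genes were 75.6% and 68.3% in mbd9-3, against 75.3% and 73.8% in wild type. In all 4 libraries together, 31 members (86.1%) were open, against 58.1% of all genes, although members were shorter, with a median length of 890.5 bp against 2078 bp. A summit in the windows of several genes was counted for each of them. The strongest summit of at least 1 library also lay in another gene's window for AT1G07660, AT3G27360, AT5G10400, MGH3 and HTB4, among others. A peak counted for a member is thus not assigned to that gene alone.

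The members stood above all genes at a stricter threshold too. Among peaks with a −log10 q-value of at least 5, 26 and 26 members were open in mbd9-3, against 27 and 28 in wild type, which is 72.2% and 72.2% against 75.0% and 77.8%. Both mbd9-3 counts were lower than both wild-type counts (difference −1.5, exact two-sided permutation p = 0.333, the smallest possible). For all genes these shares were 36.7% and 40.9% in mbd9-3, against 39.6% and 51.1% in wild type. The 33 core histone genes alone gave 29 genes open in all 4 libraries (87.9%).

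The peaks of the members also ranked high within their lists. Over genes open in all 4 libraries, the median of the mean rank percentile was 82.6 for the members, 88.4 for H2B, 77.8 for H3, 85.0 for H4 and 73.2 for all genes. No test was made between families.

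**Figure D2:**
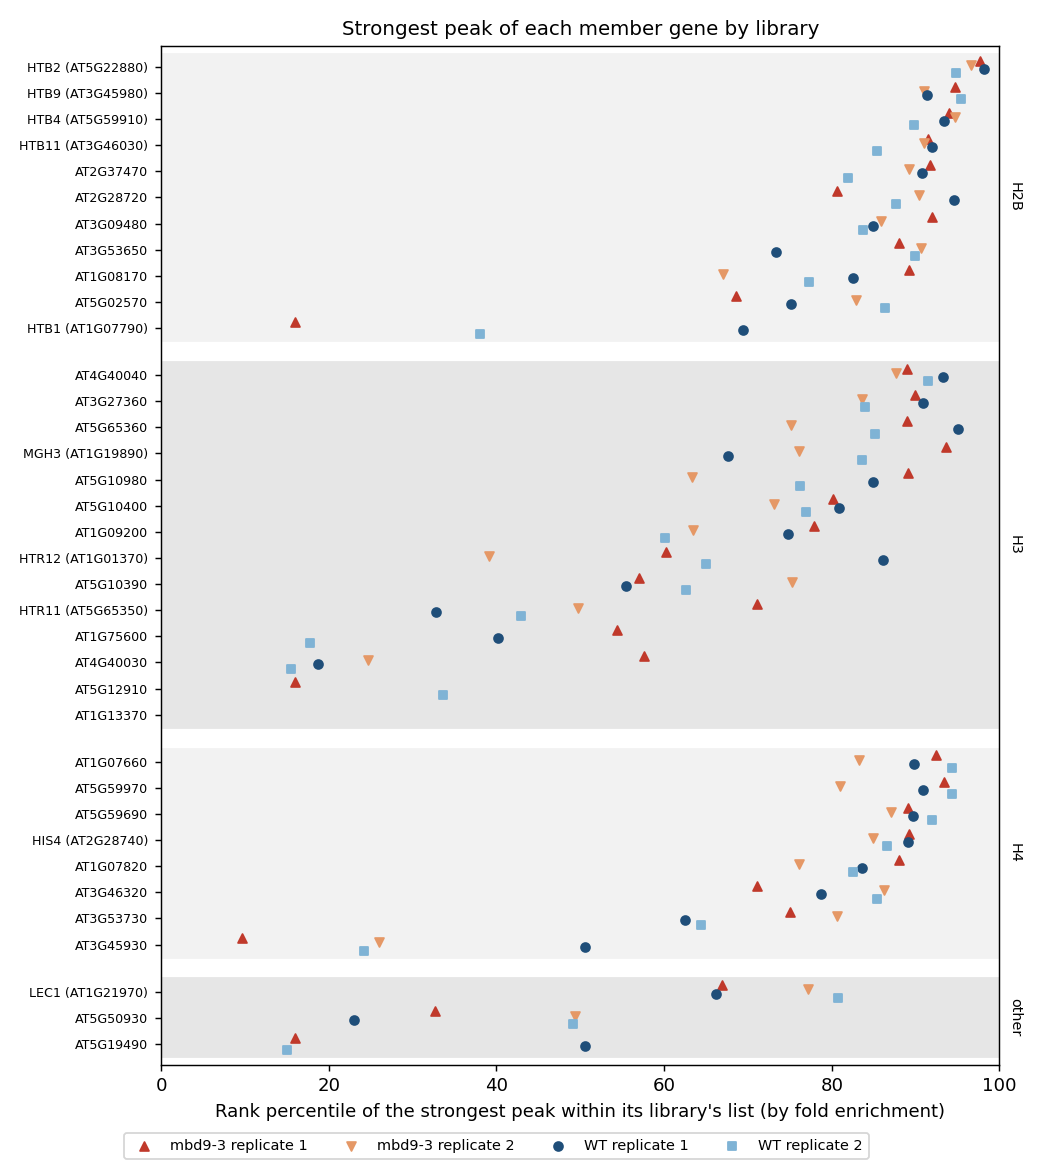
Rank percentile of the strongest peak of each member (horizontal axis, 100 = highest fold enrichment in the list) in the 2 mbd9-3 libraries (triangles) and the 2 wild-type libraries (circles and squares), by family and ordered by the mean, with no symbol where no peak was called. All H2B symbols but those of HTB1 lie at 67.0 or more, H3 spreads widely, and AT1G13370 has no symbol.

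H2B had the strongest and most even peaks. HTB2 (chr5:7651868-7652714, minus strand) had fold enrichments of 11.7 and 10.5 in mbd9-3, against 13.0 and 10.3 in wild type. It was the highest of the 36 members by mean rank percentile (96.8), although HTB9 was stronger in wild-type replicate 2. Its summits lay 5 and 9 bp after the TSS in mbd9-3 and 8 and 14 bp after it in wild type, and the values of the genotypes overlapped. HTB9 had 9.22 and 8.13 in mbd9-3, against 8.27 and 10.6 in wild type. HTB4 had 8.85 and 9.47 in mbd9-3, against 9.09 and 8.51 in wild type. HTB2 carries a hexamer at the TSS itself and another 195 bp before it, as its promoter shows with both hexamers in capitals.
HTB2, chr5:7652665-7652964, minus strand: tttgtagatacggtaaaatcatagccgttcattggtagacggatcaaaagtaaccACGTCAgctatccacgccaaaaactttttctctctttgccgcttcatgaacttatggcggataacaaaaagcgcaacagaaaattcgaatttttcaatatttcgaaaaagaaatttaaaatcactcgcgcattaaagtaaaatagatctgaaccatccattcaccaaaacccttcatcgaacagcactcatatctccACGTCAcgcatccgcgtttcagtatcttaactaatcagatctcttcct

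The 10 H2B genes open in all 4 libraries averaged rank percentiles of 88.79 and 87.93 in mbd9-3, against 87.61 and 87.25 in wild type. The difference of 0.93 points had an exact two-sided permutation p of 0.333 (n = 2 each), the smallest that 2 against 2 libraries can give. The divergent AT1G08170 was no exception, with fold enrichments of 7.27 and 5.01 in mbd9-3, against 6.22 and 6.25 in wild type. HTB1 was the exception of the family: it had a fold enrichment of 2.58 in mbd9-3 replicate 1 and no peak in mbd9-3 replicate 2, against 4.73 and 3.49 in wild type. These values did not all come from the same site in the gene. HTB1 is taken up with the H4 genes below because its upstream sequence is repeated in the genome.

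H3 genes varied more among themselves, also where their proteins were identical. Among the 5 H3.1 genes, AT3G27360 had fold enrichments of 7.43 and 6.67 in mbd9-3, against 8.09 and 7.24 in wild type. AT5G65360 had 7.22 and 5.67 in mbd9-3, against 9.92 and 7.44 in wild type. AT5G10390, which encodes the same protein, had 3.77 and 5.69 in mbd9-3, against 3.87 and 4.82 in wild type. The mean rank percentile of the 5 ran from 62.6 for AT5G10390 to 87.1 for AT3G27360, and by rank within the lists the genotypes overlapped for all 5, although the fold enrichments of AT5G65360 and AT5G10400 were lower in both mbd9-3 libraries than in both wild-type libraries.

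AT5G10390 and AT5G10400 lie 577 bp apart on the same strand, and each had its own summit in front of its own TSS. AT5G10400 had fold enrichments of 5.57 and 5.44 in mbd9-3, against 5.995 and 6.182 in wild type, with summits 68 to 92 bp before the TSS. Its promoter is the one with octamer, hexamer and TATA motif together. It is printed with the octamer (CGCGGATC), the hexamer (here as its reverse complement, TGACGT) and TATAAA in capitals.
AT5G10400, chr5:3270908-3271207, minus strand: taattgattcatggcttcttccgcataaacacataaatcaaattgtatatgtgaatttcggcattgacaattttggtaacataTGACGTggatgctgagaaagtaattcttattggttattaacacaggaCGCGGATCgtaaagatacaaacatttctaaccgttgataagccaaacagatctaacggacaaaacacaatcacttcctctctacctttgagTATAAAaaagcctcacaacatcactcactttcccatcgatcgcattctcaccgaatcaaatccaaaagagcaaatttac

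The 3 H3.3 genes covered nearly the whole range. AT4G40040 had the highest mean rank percentile of all H3 genes (90.3), with fold enrichments of 7.20 and 7.35 in mbd9-3, against 8.98 and 8.95 in wild type, so that both mbd9-3 libraries lay below both wild-type libraries. AT4G40030, whose start lies 42 bp from the end of AT4G40040, had the lowest mean of the H3 genes open in all 4 libraries (29.1), with 3.81 and 3.15 in mbd9-3, against 2.65 and 2.74 in wild type. Here both mbd9-3 libraries lay above both wild-type libraries, the opposite order to its neighbour. The 2.74 came from a summit 469 bp before the TSS of AT4G40030, within AT4G40040. At the start of AT4G40030 itself wild-type replicate 2 had 2.67. The strongest summits of AT4G40030 were small, with 13 and 12 tags in mbd9-3, against 10 and 12 in wild type. By limma on normal scores of the ranks, the difference was 0.89 ± 0.40 (SE) for AT4G40030 and −0.22 ± 0.36 (SE) for AT4G40040, and neither passed the threshold of 0.05 (adjusted p = 0.945 and 0.995). AT5G10980 had fold enrichments of 7.24 and 4.70 in mbd9-3, against 6.65 and 6.08 in wild type.

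The 6 H3 genes with proteins of their own included the genes with the fewest peaks. AT1G13370, 9 residues from H3.1, was the 1 member with no summit in any library, although every start position in its window was unique in the genome at 50 bases. AT1G75600, also 9 residues from H3.1, had a fold enrichment of 3.68 in mbd9-3 replicate 1 and no peak in mbd9-3 replicate 2, against 3.28 and 2.84 in wild type. Both proteins were nearer to H3.3, with 94.9% identity for AT1G13370 and 96.3% for AT1G75600, against 93.4% to H3.1 for each. AT1G75600 carries A31T, F41Y, S87H and A90L. AT5G12910 (69.9% identity) had 2.58 in mbd9-3 replicate 1 and no peak in replicate 2, against no peak in wild-type replicate 1 and 3.33 in replicate 2, 862 and 870 bp before the TSS. Both genotypes thus had 1 library with a call at AT5G12910 and 1 without.

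MGH3, an H3 gene known for expression in the male germline, was open in all 4 libraries. It had fold enrichments of 8.71 and 5.74 in mbd9-3, against 4.61 and 7.15 in wild type, with overlapping values and summits from 192 to 205 bp before the TSS. In at least 1 library this summit also lay in the window of AT1G19880. HTR11 had 4.70 and 3.97 in mbd9-3, against 3.06 and 3.72 in wild type, so both mbd9-3 libraries lay above both wild-type libraries. Those summits lay 794 to 850 bp before the HTR11 start, which is 38 to 94 bp before the TSS of AT5G65360, the H3.1 gene whose end lies 33 bp from HTR11, so they lie in the neighbour's promoter. Within HTR11 itself 1 summit was called, in mbd9-3 replicate 1 (fold enrichment 2.94, 304 bp into the gene). In the merged region that holds the upstream summits and the stronger one of AT5G65360, the limma difference was −0.41 ± 0.42 (SE, adjusted p = 0.963), the other way from the gene value of 0.85 ± 0.38 (SE, adjusted p = 0.945).

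HTR12, the centromeric H3, had the lowest unadjusted p among the member regions. At its TSS the fold enrichment was 3.31 and 3.59 in mbd9-3, against 6.92 and 5.06 in wild type, from summits of 8 and 9 tags in mbd9-3, against 18 and 17 tags in wild type. Both mbd9-3 libraries lay below both wild-type libraries, and the summits lay within 18 bp of the TSS in all 4. The region's limma difference was −1.08 ± 0.42 (SE) with an unadjusted p of 0.0323 and an adjusted p of 0.905, so it did not pass the threshold. It was 1 of 32 member regions at an unadjusted p under 0.05, and 5.35% of all 19546 regions tested reached that level. At gene level mbd9-3 replicate 1 had a stronger summit 2897 bp into the gene (fold enrichment 3.99), which also lies in the window of AT1G01380, and the gene difference was −0.77 ± 0.43 (SE, limma adjusted p = 0.946).

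The 11 H3 genes open in all 4 libraries averaged rank percentiles of 77.67 and 64.66 in mbd9-3, against 70.96 and 67.58 in wild type. The mbd9-3 libraries lay on either side of wild type, and the difference of 1.89 points had an exact two-sided permutation p of 1.0 (n = 2 each).

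All 8 H4 genes were open in all 4 libraries, and for 5 of them the strongest summit lay at most 332 bp before or 63 bp after the start, with 1 exception in mbd9-3 replicate 1 (730 bp after the start of AT5G59970). AT1G07660 had fold enrichments of 8.23 and 6.58 in mbd9-3, against 7.77 and 10.06 in wild type. AT5G59970 had 8.60 and 6.28 in mbd9-3, against 8.07 and 10.04 in wild type, with the 8.60 from the summit 730 bp after its start. At its promoter the fold enrichments were 7.89 and 6.28 in mbd9-3, against 8.07 and 10.04 in wild type. There both mbd9-3 libraries were lower by fold enrichment. The rank percentiles overlapped, with 91.4 in mbd9-3 replicate 1 against 90.9 in wild-type replicate 1. AT5G59690 had 7.24 and 7.20 in mbd9-3, against 7.73 and 9.14 in wild type. These were the 3 highest of the family by mean rank. By the strongest peak of each library, both mbd9-3 libraries lay below both wild-type libraries in AT5G59690 alone among them. Its summits lay 35 to 47 bp before the TSS, just after the octamer, which is in capitals in its promoter.
AT5G59690, chr5:24051224-24051523, plus strand: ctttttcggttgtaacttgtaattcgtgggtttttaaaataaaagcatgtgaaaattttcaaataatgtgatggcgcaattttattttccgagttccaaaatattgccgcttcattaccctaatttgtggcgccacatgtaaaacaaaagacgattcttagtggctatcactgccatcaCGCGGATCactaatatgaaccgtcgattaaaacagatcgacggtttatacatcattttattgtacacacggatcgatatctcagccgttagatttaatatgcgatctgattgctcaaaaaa

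The 8 H4 genes averaged rank percentiles of 76.01 and 75.63 in mbd9-3, against 79.36 and 77.98 in wild type. Both mbd9-3 libraries were lower, and the difference of −2.85 points had an exact two-sided permutation p of 0.333 (n = 2 each). Over all genes open in the 4 libraries the averages were 70.14 and 66.64 in mbd9-3, against 70.56 and 71.75 in wild type, with a difference of −2.76 points (exact permutation p = 0.333).

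The other 3 H4 genes had no summit in front of the start. AT3G53730 had fold enrichments of 5.04 and 6.22 in mbd9-3, against 4.25 and 4.99 in wild type, from summits 326 to 389 bp after the TSS in its long 5′ UTR, and both mbd9-3 libraries lay above both wild-type libraries. AT3G46320 had 4.69 and 7.08 in mbd9-3, against 5.71 and 7.51 in wild type, and its 1 summit in each library lay 555 to 562 bp after the TSS, in the 3′ UTR. AT3G45930 had 2.42 and 3.20 in mbd9-3, against 3.64 and 3.02 in wild type, from summits 575 to 633 bp after the TSS, also in the 3′ UTR.

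AT3G45930 and AT3G46320 are copies of each other, 135775 bp apart on chromosome 3, and the copy reaches through their promoters. Per the study's methods, which name Bowtie, only reads with a single match in the genome were kept, while the submitters' notes name Bowtie2, so whether this held for the deposited lists is not settled by the sources used here. Of the 1000 start positions upstream of each gene, 32.2% gave a 50-base sequence that occurs in 1 place, and all 678 others upstream of each had their second copy in front of the other gene. The promoters have the same base at 296 of 300 positions (98.7%) and are printed with TATAAA in capitals.
AT3G45930, chr3:16883066-16883365, plus strand: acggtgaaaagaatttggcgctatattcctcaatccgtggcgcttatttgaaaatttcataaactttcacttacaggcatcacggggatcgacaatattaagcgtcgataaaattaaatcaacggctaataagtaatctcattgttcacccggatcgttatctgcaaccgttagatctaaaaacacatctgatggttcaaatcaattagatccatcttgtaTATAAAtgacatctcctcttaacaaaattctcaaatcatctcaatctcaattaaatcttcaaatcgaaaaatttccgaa
AT3G46320, chr3:17020379-17020678, minus strand: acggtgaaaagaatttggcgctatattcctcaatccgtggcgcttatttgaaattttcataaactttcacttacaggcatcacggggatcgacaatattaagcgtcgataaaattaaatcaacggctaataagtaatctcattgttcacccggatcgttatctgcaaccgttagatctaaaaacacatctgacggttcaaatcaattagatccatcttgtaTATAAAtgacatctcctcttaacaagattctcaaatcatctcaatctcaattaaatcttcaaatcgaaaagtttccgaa

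HTB1 was the third member of this kind. Upstream of it 27.6% of start positions were unique, and 88.3% of the 724 others had a copy in a stretch at AT1G07770 that ends 3095 bp before HTB1. No summit lay upstream of HTB1 in any library, and its summits lay 26 or 27 bp and 488 or 503 bp after the TSS, where every 50-base start position was unique. The site at 26 or 27 bp was called in both wild-type libraries (fold enrichments 3.64 and 3.49) and in neither mbd9-3 library. The site at 488 or 503 bp was called in mbd9-3 replicate 1 (2.58) and wild-type replicate 1 (4.73). In all other members at least 99.4% of upstream positions were unique, AT3G53730 included at 100%. With reads of 36 or 100 bases the upstream shares were 19.4% and 51.1% for HTB1, 26.3% and 46.4% for AT3G45930, and 26.6% and 46.4% for AT3G46320. The part of single-match mapping in the absence of these promoter peaks was not tested.

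**Figure D3:**
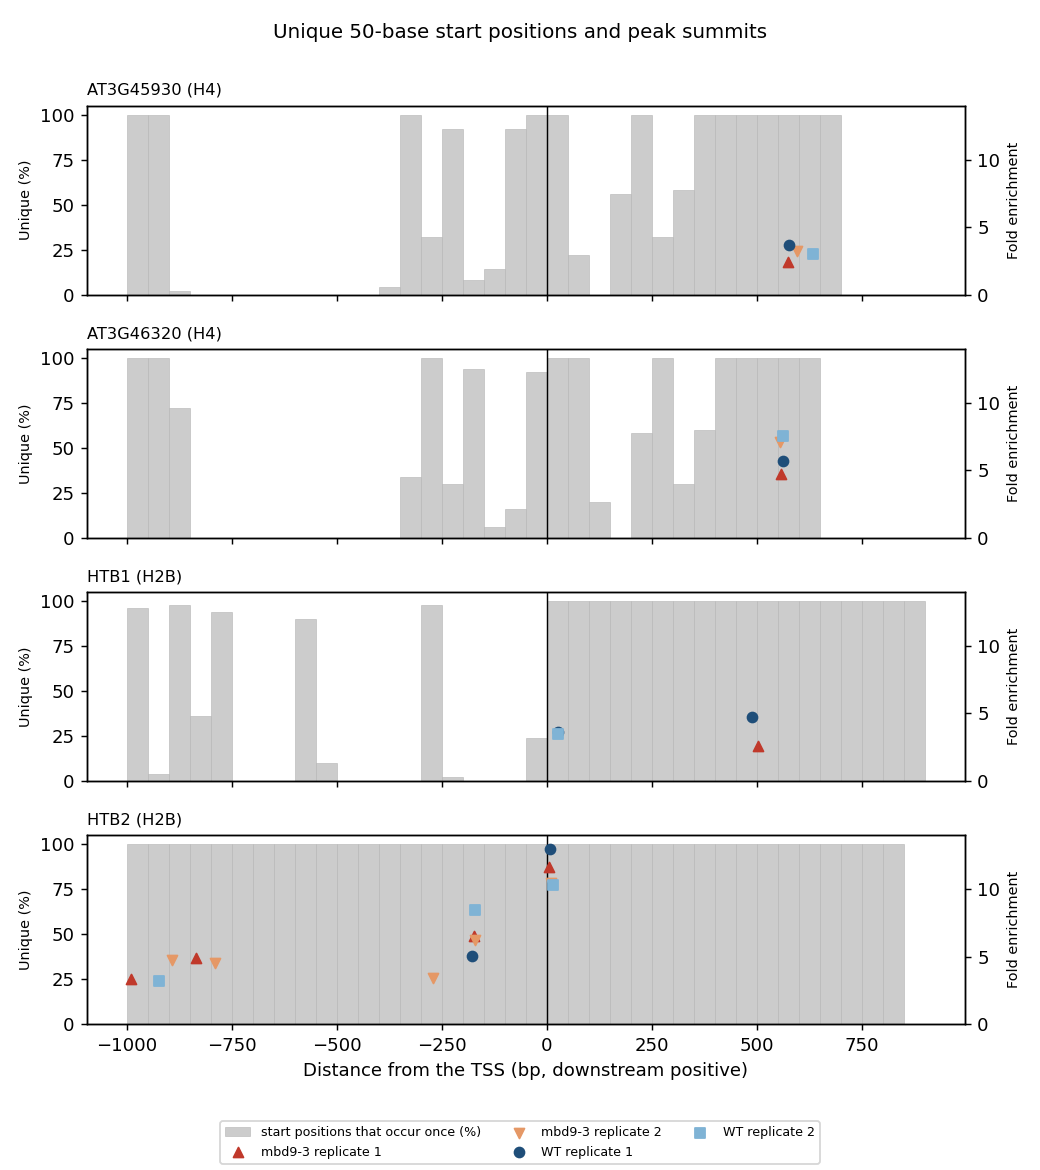
Share of start positions whose 50-base sequence occurs in 1 place of the genome (grey bars, % per 50 bp bin, left axis) and fold enrichment of each summit (symbols by library, mbd9-3 triangles and wild-type circles and squares, right axis) by distance from the TSS in bp, for AT3G45930, AT3G46320, HTB1 and, for comparison, HTB2. Upstream of the first 3 genes few bars reach 100% and no summit was called, while HTB2 is unique throughout and has its strongest summits at the TSS.

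The histone-fold genes outside the core families had weaker peaks. LEC1 had fold enrichments of 4.41 and 5.82 in mbd9-3, against 4.45 and 6.68 in wild type, from summits over 1 kb into the gene. AT5G50930 had 2.97 and 3.95 in mbd9-3, against 2.86 and 4.02 in wild type. AT5G19490 had 2.58 in mbd9-3 replicate 1 and no peak in mbd9-3 replicate 2, against 3.64 and 2.72 in wild type.

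Across the members, the strongest summits clustered in front of the start. They lay within 300 bp upstream of the TSS in 17 of 35 and 17 of 31 open members in mbd9-3, against 17 of 34 and 18 of 35 in wild type, a share of 48.6% to 54.8% in each library. For all open genes the shares were 27.6% and 34.0% in mbd9-3, against 29.2% and 33.8% in wild type. The windows ran to the gene end, and members were shorter, with a median gene length of 890.5 bp against 2078 bp. A stretch of 300 bp is thus a larger part of a typical member window. The part of gene length in these shares and in the spread of summits was not tested. Within each library, the strongest summit was upstream of the TSS in most open H3 genes. These were 11 of 13 and 10 of 11 in mbd9-3, against 10 of 12 and 12 of 13 in wild type. They include HTR11, with summits in the promoter of AT5G65360, and in wild-type replicate 2 AT4G40030, with a summit within AT4G40040. For H2B the counts were 7 of 11 and 7 of 10, against 7 of 11 and 8 of 11. For H4 they were 3 of 8 and 4 of 8, against 5 of 8 and 4 of 8. The strongest H4 summits in the 3′ UTR were those of AT3G45930 and AT3G46320, and of AT5G59970 in mbd9-3 replicate 1. The 4 summits of a gene lay within 50 bp of each other in 16 of 31 members open in all libraries, 7 of 10 H2B genes among them, and in 43.5% of all genes.

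**Figure D4:**
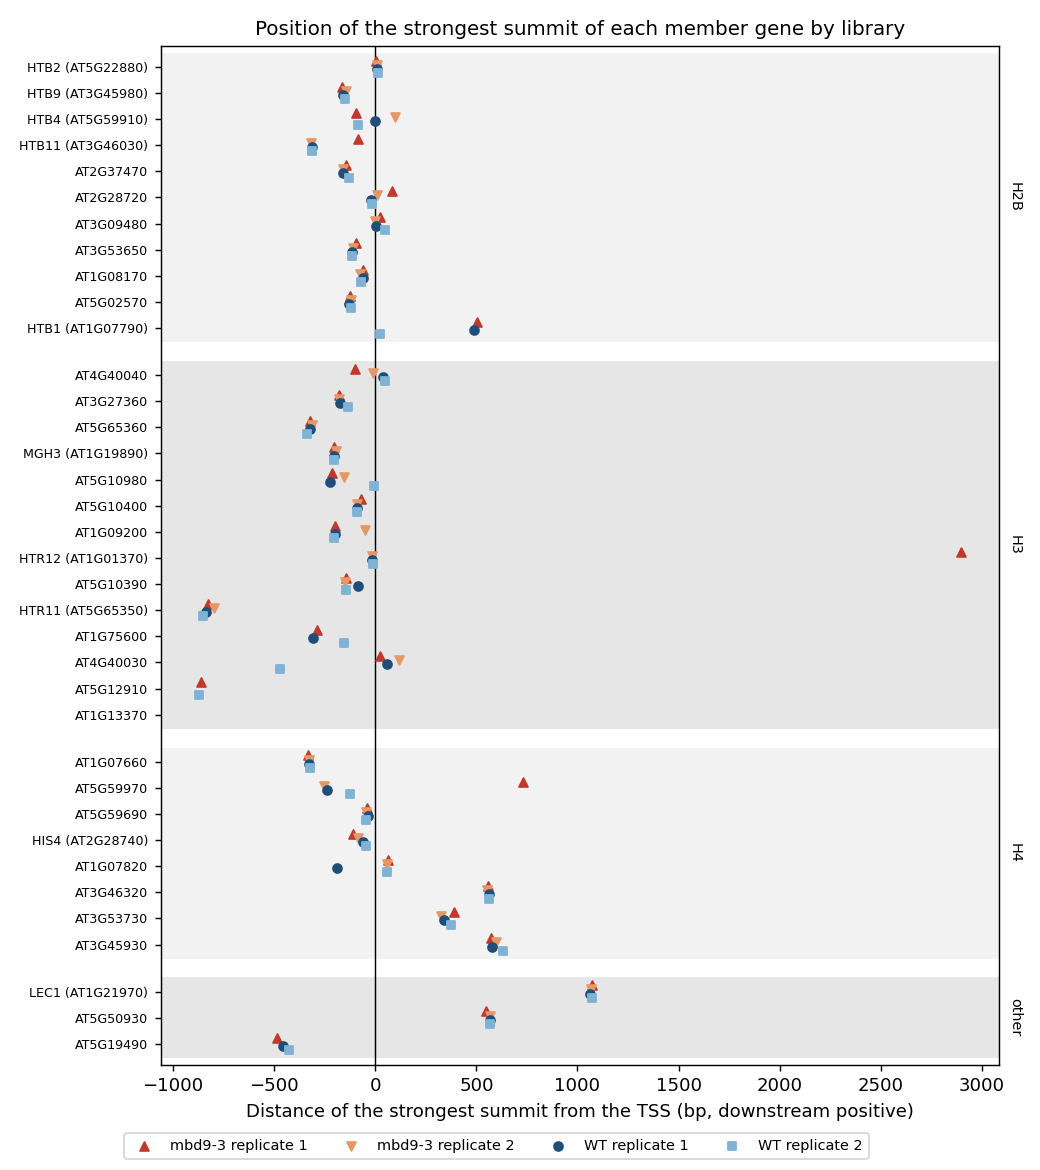
Distance of the strongest summit of each member from its TSS in bp (horizontal axis, downstream positive) in the 2 mbd9-3 libraries (triangles) and the 2 wild-type libraries (circles and squares), in the same order of genes as the plot of ranks. Most symbols lie just left of the TSS, those of AT3G45930, AT3G46320 and AT3G53730 lie right of it, and the HTR12 summit at 2897 bp belongs to mbd9-3 replicate 1.

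Between the genotypes the counts of open members and of summits and the mean rank overlapped when all peaks were used. The count of open members averaged 33.0 ± 2.83 in mbd9-3 and 34.5 ± 0.71 in wild type (SD, n = 2 each), with an exact two-sided permutation p of 1.0. Distinct peak summits in the member windows numbered 64 and 58 in mbd9-3, against 61 and 61 in wild type (exact permutation p = 1.0). The mean rank percentile of the 31 members open in all libraries was 79.03 and 74.91 in mbd9-3, against 76.80 and 76.44 in wild type (exact permutation p = 1.0). In each of these 3 measures, mbd9-3 replicate 1 was higher than mbd9-3 replicate 2, and the wild-type values lay between them or at their edge.

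No member was open in both libraries of one genotype and in neither of the other. Of all genes, 0.893% were open in both mbd9-3 and neither wild-type library, and 1.75% in both wild-type and neither mbd9-3 library. The 4 members open in only some libraries were HTB1, AT1G75600, AT5G19490 and AT5G12910, and all 4 lacked a peak in mbd9-3 replicate 2, the list with the fewest rows (37609, against 43962 to 45208 in the other 3). With the same number of top peaks taken from each list, 32 and 31 members were open in mbd9-3, against 34 and 35 in wild type, so both mbd9-3 libraries lay below both wild-type libraries (exact permutation p = 0.333, the smallest possible).

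Ranks of both mbd9-3 libraries lay above both wild-type libraries in 5 of 31 members (AT3G09480, AT3G53730, AT4G40030, HTB4 and HTR11), against 12.0% of all genes. They lay below in 3 of 31 (HTR12, AT4G40040 and AT5G59690), against 22.1% of all genes. With limma, 0 of 31 members and 0 of 15935 genes passed an adjusted p of 0.05 (0% called), and 0 of 31 members and 5.01% of all genes had an unadjusted p under 0.05. The lowest unadjusted limma p of a member at gene level was 0.0511, for HTR11, whose strongest summits lie in the promoter of AT5G65360. The merged region that holds those summits had a difference of −0.41, the other way. Gene-level score differences ran from −0.77 to 0.89 with a median standard error of 0.39. The 0.89 was that of AT4G40030, whose strongest summit in wild-type replicate 2 lay within AT4G40040. At region level 0 of 32 member regions and 0 of 19546 regions passed (0% called), the lowest unadjusted p was the 0.0323 of HTR12, and the differences ran from −1.08 to 0.91.

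Merging the peaks of the 4 libraries gave 59 regions with a summit in a member window, of which 32 (54.2%) were called in all 4 libraries, against 30.4% of all 64218 regions. Of the 59, 1 was called in both mbd9-3 and neither wild-type library and 2 in both wild-type and neither mbd9-3 library, against 1.54% and 2.69% of all regions. The 1 lay in front of AT2G28720, and the 2 lay at the start of HTB1 and in front of AT1G07660.

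Genes that work with the histones gave a reference list of 20 histone chaperones and linker histones. Of these, 18 and 16 were open in mbd9-3, against 18 and 18 in wild type, and 15 in all 4 libraries, where 58.1% of all genes were open. The median of the mean rank percentile of those 15 was 84.8, close to the 82.6 of the members. HIRA, the chaperone of H3.3, had fold enrichments of 16.2 and 13.0 in mbd9-3, against 16.2 and 14.9 in wild type. FAS1, the large subunit of the chaperone that deposits H3.1, had 7.73 and 5.38 in mbd9-3, against 8.01 and 7.62 in wild type. The list also held weaker genes. MSI1 had a peak only in wild-type replicate 1 (3.14), and AT1G77310 only in mbd9-3 replicate 1 (2.94). Of 6 genes of flower development taken as tissue markers, 5 and 5 were open in mbd9-3, against 4 and 5 in wild type. AP1, SEP3, AG and LFY were open in all 4 libraries, and the median of these 4 was 84.4, against 73.2 for all genes. The other markers were weaker. AP3 had peaks only in mbd9-3 replicate 1 (3.31) and wild-type replicate 2 (3.30), with a mean rank percentile of 38.2. PI had a peak only in mbd9-3 replicate 2 (3.65), with a rank percentile of 41.6.

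The depth of each library can be read from its list only in part. The lowest background was 1.72 and 1.79 tags in mbd9-3, against 1.75 and 2.15 tags in wild type, the median peak had 10 and 12 tags in mbd9-3, against 10 and 14 in wild type, and the median fold enrichment was 3.53 and 3.99 in mbd9-3, against 3.64 and 4.08 in wild type. A missing call at this depth shows only that a site was under the calling limit.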

How the data were processed

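ATAC-seq peak lists of 4 libraries (mbd9-3 and WT, 2 each, grouped by sample title) were used. Per the study's methods and the submitters' processing notes, the authors trimmed adaptors with Trim Galore, mapped reads to TAIR10 (Bowtie in the methods, Bowtie2 in the notes), and took out chloroplast, mitochondrial and duplicate reads with SAMtools. The methods give an option that keeps uniquely matching reads. Whether it held for these lists is not settled by the sources used here. The peak caller, the read length and any Tn5 shift are not given in the sources used here. The deposited narrowPeak lists were called per library without a control. They hold a score, a fold enrichment (ratio of pileup to background, each with a small constant added), a −log10 p-value, a −log10 q-value and a summit position, all deposited by the authors. The score was not used. Values of separately called lists share no scale, so peaks were ranked within a list. Rows without a summit (86 and 45 in mbd9-3, 81 and 49 in WT) took the middle of the interval.

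A gene was assigned each summit from 1000 bp upstream of its TSS to its end, in RefSeq TAIR10.1 models. Numbers of tags were solved from fold enrichment and p-value as a Poisson tail, for 100.0% of rows within 0.001 of the −log10 p-value. Per-library values were compared with an exact two-sided permutation test. Ranks of genes and of merged regions called in all 4 libraries were tested as normal scores with limma 3.58.1 in R 4.3.3, with Benjamini-Hochberg adjustment over all genes or regions, and the step was tested on simulated data. The p-values measure only the spread between these libraries, since nothing says how plants were pooled. Other steps used Python 3.11.15, pandas 2.3.3, numpy 2.4.6, scipy 1.17.1 and matplotlib 3.10.9. A motif search covered 250 bp before to 50 bp after the TSS, and unique positions were counted on the whole reference with 36, 50 and 100 bases.

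Members, lists and tests were chosen with earlier results of these data known. Named with values were the 3 highest by mean rank in each family, members with no summit or in 1 genotype only, H3 genes not identical to H3.1 or H3.3, and genes with an unadjusted limma p under 0.05 (0 at gene level). All other members named were chosen after their values were seen. Alternatives were a stricter q-value, equal list lengths, other windows, interval overlap, other ranks, a replicate block, genes called in at least 2 libraries and leaving out each library.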

Additional observations from a re-analysis of the deposited data

How the results depend on the processing

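With 2 libraries a genotype, no alternative could pass a permutation threshold of 0.05. The difference in open members (mbd9-3 minus WT, −1.5) ran from −3.0 to −1.0 over 6 alternatives (−3.0 with equal list lengths, where the genotypes did not overlap), and leaving out each library gave −3.5 to 0.5, positive without mbd9-3 replicate 2. The difference in summits (0.0) ran from −1.5 to 0.5 over 7 alternatives and from −3.0 to 3.0 over left-out libraries. The mean rank difference (0.35) was −2.31 when only the 1 kb upstream of the TSS was used, 0.12 and 0.61 under the other alternatives, and −1.71 to 2.41 over left-out libraries, negative without mbd9-3 replicate 1. The cause was not tested. Limma called 0 genes and 0 regions in all other settings, and 0 to 10 genes over left-out libraries (5 without mbd9-3 replicate 1, 10 without mbd9-3 replicate 2, where the lone mbd9-3 library is assumed to vary like the others), 0 members among them. Among genes called in at least 2 libraries, where a missing call took the lowest rank, 1 of 35 members (HTB1) had an unadjusted limma p under 0.05, against 5.3% of all genes. Among regions of that kind, 4 of 45 member regions did, against 6.64% of all regions. With the replicate number as a block (replicate block), limma called 0 genes and 0 regions. In that setting 2 members (HTR11 and AT4G40030) had an unadjusted limma p under 0.05 (0.0499 and 0.0395), against 6.81% of all genes. As stated above, the strongest HTR11 summits lie in the promoter of AT5G65360. The AT4G40030 value of wild-type replicate 2 comes from within AT4G40040. The replicate numbers are shared labels only: deviations of same-numbered libraries correlated at 0.118 over 15935 genes, with 2 pairs. Depth limits weak sites, where a missed call and closed chromatin cannot be told apart.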

Other observations

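The flanks of the hexamers in the H2B promoters share more than the hexamer. Read off the printed copies, and so chosen after they were seen, the form ACGTCANNNATCC lay in 6 of 11 H2B windows (54.5%): HTB1, HTB2, HTB9, HTB11, AT2G37470 and AT3G53650. It also lay in the windows of MGH3, AT5G10980 (H3.3) and AT1G07820 (H4). Of 27437 windows of all genes 32 held it (0.117%), so 9 of these 32 belonged to the 36 members. In several copies the bases that follow continue towards the reverse complement of the octamer, GATCCGCG, which is complete in none of the H2B windows.

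Several histone genes stand close to each other. AT2G28720 (H2B) and HIS4 (H4) lie 1536 bp apart, HTB1 and AT1G07820 (H4) 7298 bp, AT3G45930 (H4) and HTB9 13277 bp, HTB9 and HTB11 15370 bp, HTB4 and AT5G59970 (H4) 17668 bp, and AT3G53650 (H2B) and AT3G53730 (H4) 22133 bp. Within such pairs ranks were alike or unequal. HTB9, with a mean rank percentile of 93.1, lies beside AT3G45930, with 27.6, whose upstream sequence is mostly not unique. AT2G28720 and HIS4 were alike, with 88.3 and 87.5.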
